A study of Mus musculus with 44 samples.

Results

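The hindgut of E9.5 mouse embryos holds endoderm cells of 2 origins, and the transcriptomes of these cells were compared here. The libraries were taken by their titles, 4 named exHindgut (extraembryonic origin) and 4 named emHindgut (embryonic origin), out of the 44 RNA-seq libraries of the series. The comparison addresses whether extraembryonic cells that entered the gut still differ from their embryonic neighbours. Embryos were made by two-colour lineage tracing, in which an mCherry+ morula was aggregated with GFP+ mouse embryonic stem cells, so that the embryo proper descends from the stem cells and the extraembryonic tissues from the morula. The exHindgut libraries hold EPCAM+ mCherry+ cells. The emHindgut libraries hold EPCAM+ dual-labelled cells, which are GFP+ with a low mCherry signal and carry remnants of extraembryonic cells. The cells were sorted from the posterior tissue of 4 pooled embryos per library, all E9.5 and wild type. The morulae were CD1/G4, from mCherry+ males and CD-1 females, and the stem cells were G4. The mCherry+ colony itself was founded from F1G4 stem cells and kept by mating to C57BL/6J females, so the morulae also carry that background. mCherry is driven by an EF1a promoter on a piggyBac transposon and EGFP by a CAG promoter at the Rosa26 locus, both constitutive, and every emHindgut cell descends from a single stem cell line. By the methods the stem cell line is male, whereas mCherry+ cells can be of either sex. Lineage origin, genetic background, reporter, culture history and sex composition therefore change together and cannot be told apart in this comparison. The sources do not say whether same-numbered libraries of the 2 origins, or of hindgut and midgut, came from the same embryos, and p-values measure only the spread between these libraries.

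Most gut endoderm forms from the epiblast, but cells of the visceral endoderm, an extraembryonic epithelium that feeds the early embryo through secreted and transport proteins, are intercalated into it. The hindgut is the posterior end of the gut tube, beside the tail bud, where caudal and Hox homeobox genes record axial position and Wnt, FGF and retinoic acid signals act. Extraembryonic lineages carry a DNA methylation pattern unlike that of the embryo, and several X-linked reproductive homeobox (Rhox) and lymphocyte-regulated (Xlr) genes are known to be active in them.

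Values are in TPM, a transcript share corrected for transcript length and library size, and differences are exHindgut minus emHindgut on the log2(TPM + 1) scale, where the added 1 TPM understates the change of weakly expressed genes. Genes above 1 TPM in at least 4 of the 8 libraries were tested with limma, and a gene was called at a Benjamini-Hochberg adjusted p under 0.05 with an absolute difference above 1. The libraries hold 3.53 to 12 Gb of aligned sequence, as computed from the coverage, and 13224 to 13596 genes above 1 TPM. No read counts were used, and the methods describe low-input libraries made from small numbers of sorted cells. The sampling error of a single value, from reads or from cells, is therefore unknown beyond these totals. In bulk samples such as these, fewer cells of a type and less RNA per cell cannot be told apart.

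The reporters followed the labels. mCherry was 6775, 7458, 6991 and 7031 TPM in the 4 exHindgut libraries and 6.61, 2.16, 0 and 0.786 TPM in the 4 emHindgut libraries. EGFP was 647, 548, 664 and 629 TPM in emHindgut and at most 2.38 TPM in exHindgut. Trp53, the gene of the p53 protein, was 226, 230, 259 and 209 TPM in exHindgut against 238, 227, 256 and 232 TPM in emHindgut, with a difference of -0.05 (SE 0.10, adjusted p = 0.858) and overlapping groups. The transcript of the host locus of the EGFP cassette, Gt(ROSA)26Sor, was 39.5 to 75.6 TPM in exHindgut and 183 to 243 TPM in emHindgut.

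The sex-linked transcripts differ within and between the groups. Xist, the non-coding RNA of the inactive X chromosome, was 75.0, 42.4, 59.0 and 47.6 TPM in exHindgut and at most 0.252 TPM in emHindgut (difference 5.67, SE 0.31, in a fit that kept all gene types). Its antisense partner Tsix was 22.4 to 35 TPM against 0.513 to 2.34 TPM, and reads of this overlapping pair cannot be told apart where strand is not stated. The Y-linked Eif2s3y was 0, 26.8, 14.9 and 28.1 TPM in exHindgut and listed at 0 in all 4 emHindgut libraries. Kdm5d was 0, 3.02, 1.13 and 14.5 TPM in exHindgut and at most 0.000956 TPM in emHindgut. Ddx3y was 0, 7.7, 4.08 and 13.6 TPM in exHindgut and 0.1, 0.249, 3.18 and 0.211 TPM in emHindgut, and Uty was 0.00117, 14.4, 7.16 and 12.4 TPM against 2.49, 3.96, 3.63 and 0.0191 TPM. The 4 Y-linked genes summed to 0.00117, 51.9, 27.3 and 68.7 TPM in exHindgut and 2.59, 4.21, 6.81 and 0.230 TPM in emHindgut. The methods describe the parental stem cell line as male, and the emHindgut libraries hold low levels of Ddx3y and Uty and almost no Eif2s3y or Kdm5d. exHindgut replicate 1 shows Xist without Eif2s3y, whereas the other 3 exHindgut pools show both.

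The fixed marker genes of gut endoderm (Epcam, Cdh1, Foxa1, Foxa2, Krt8, Krt18, Cldn6 and Cldn4) were all present, with a summed level of 2720 to 3673 TPM in exHindgut and 2114 to 2726 TPM in emHindgut. The 7 hindgut markers, among them Cdx2, T and Hoxa13, each had a group mean above 1 TPM. Cdx4, also in this set, was near 0 in every exHindgut library except replicate 1. The 7 hindgut markers summed to 488 to 746 TPM in exHindgut and 1055 to 1271 TPM in emHindgut. The midgut markers Gata4 and Pdx1 stayed at or below 0.469 TPM in every hindgut library. A further gene of the midgut list, Osr1, was 27.2 to 43.0 TPM in exHindgut and 23 to 42.8 TPM in emHindgut. The 8 yolk sac and visceral endoderm markers summed to 37.0 to 655 TPM in exHindgut and 6.89 to 48.2 TPM in emHindgut. Mesenchyme and mesoderm markers, 8 in number, summed to 22.6 to 30.2 TPM in exHindgut and 40.8 to 59.1 TPM in emHindgut. Blood, endothelium and neural markers summed to at most 3.96 TPM in any hindgut library. Other sets were higher. Surface ectoderm markers summed to 4.71 to 18.8 TPM in exHindgut and 4.77 to 16.6 TPM in emHindgut. The sums for nephric duct markers were 3.36 to 8.70 TPM and 7.06 to 16.2 TPM. Notochord markers, Shh among them, summed to 29.0 to 76.3 TPM in exHindgut and 53.7 to 102 TPM in emHindgut. exHindgut replicate 1 has the lowest Afp, Ttr and Shh of its group, so the leading counts were also made without it.

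Of 12318 genes tested, 378 were called (3.07%), 169 of them higher in exHindgut (1.37%) and 209 lower (1.7%). At the adjusted p alone 657 genes passed (5.33%), 278 of them higher (2.26%) and 379 lower (3.08%). At an unadjusted p under 0.05 by limma 2363 of the 12318 genes passed, 1050 higher and 1313 lower. The unadjusted counts given for lists below are to be read against these numbers. The rises reach further than the falls. Among the called genes 18 rises and 6 falls exceed 16-fold, and 72 rises and 63 falls exceed 4-fold. The 18 rises include mCherry and all 11 tested genes of the Xlr and Rhox list, many of them copies close in sequence. The 6 falls include EGFP. The 4 exHindgut values lie entirely on one side of the 4 emHindgut values for 163 of the called rises and 198 of the called falls, against 5.2% and 6.75% of all genes tested that separate upward and downward. The calls were made on these same values, so this separation largely follows from the selection. The median difference over all genes tested was -0.02. Without exHindgut replicate 1 the test called 359 genes, 168 higher and 191 lower. Leaving out emHindgut replicate 1 gave the fewest calls, 252, which is 1.5 times below the full count, with 139 higher and 113 lower. The split was 128 and 137 without emHindgut replicate 2, 154 and 140 without emHindgut replicate 3, and 137 and 135 without emHindgut replicate 4, so the excess of falls over rises is smaller or absent without any 1 of the emHindgut libraries.

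**Figure D1:**
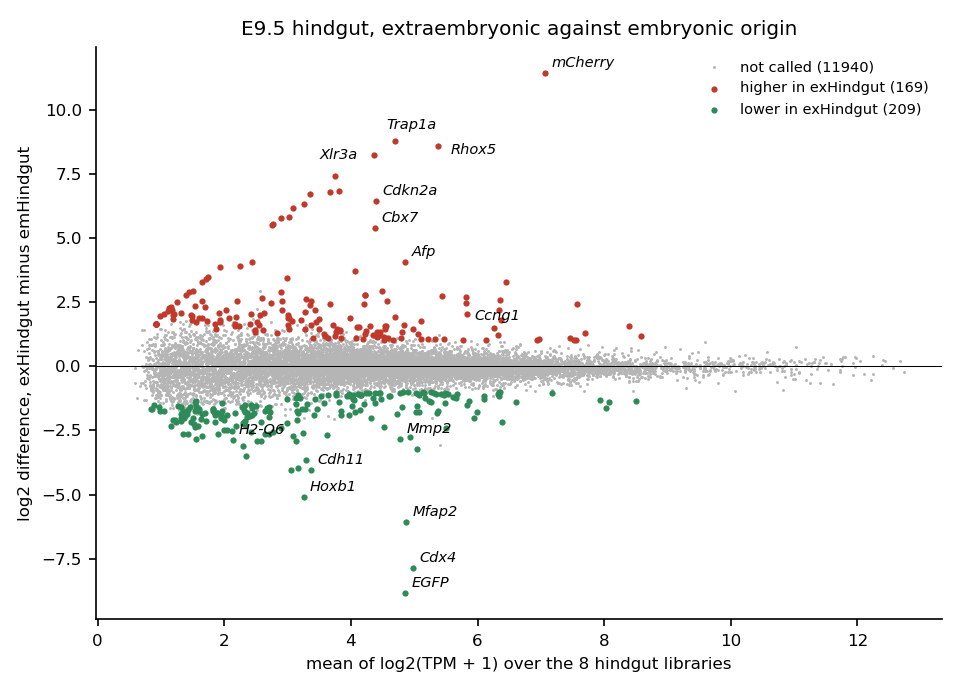
Difference between exHindgut and emHindgut (log2, vertical axis) against the mean level of each gene over the 8 libraries (log2(TPM + 1), horizontal axis). Red points are the 169 genes called higher and green points the 209 called lower, with Trap1a at 8.77, Rhox5 at 8.58 and Cdx4 at -7.85 among the points farthest from 0.

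Genes of the Xlr and Rhox families and Trap1a were near silent in the embryonic cells and abundant in the extraembryonic ones. Trap1a (ENSMUSG00000051257, a tumour rejection antigen gene, chrX:139333683-139338169, mm10) was 556, 484, 533 and 588 TPM in exHindgut and 0.191, 0, 0 and 0.954 TPM in emHindgut, a difference of 8.77 (SE 0.23, adjusted p = 7.47e-12). Rhox5 (ENSMUSG00000095180, chrX:37804842-37808876), a homeobox gene used as a marker of extraembryonic origin, was 814, 863, 740 and 839 TPM against 0, 2.18, 5.34 and 0 TPM, a difference of 8.58 (SE 0.45, adjusted p = 1.23e-08). Rhox6, its neighbour in the cluster, was 105, 170, 144 and 119 TPM against 0, 0, 1.18 and 0 TPM. The groups are far apart for each of the 3 genes, by more than the whole range within either group.

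The Xlr3, Xlr4 and Xlr5 genes, which encode nuclear proteins related to a synaptonemal complex component, form a cluster on the X chromosome. Xlr3a (ENSMUSG00000057836, chrX:73086293-73097095) was 409, 339, 344 and 328 TPM in exHindgut and 0, 0.563, 0.200 and 0.0604 TPM in emHindgut, a difference of 8.22 (SE 0.22, adjusted p = 7.47e-12). Xlr5a was 150 to 196 TPM against at most 0.0965 TPM, and Xlr3b was 144 to 156 TPM against at most 1.86 TPM. Xlr4b was 97.0 to 117 TPM and Xlr4c 64.9 to 75.6 TPM in exHindgut, and both were listed at 0 in every emHindgut library. Of the 14 listed Xlr and Rhox genes 11 passed the filter and all 11 were called higher, with a median difference of 6.71, and the count was also 11 with any single hindgut library left out. This median depends on the pseudocount, since 4 of the 11 (Xlr4a, Xlr4b, Xlr4c and Xlr5c) have no emHindgut value above 0. The listed genes together summed to at most 8.96 TPM in any emHindgut library, so they passed the filter through the exHindgut libraries. Their shared direction was thus largely set by the filter, and the count of 11 is not separate evidence. The copies of this family are close in sequence, so the split of reads among Xlr3a, Xlr3b and Xlr3c, and likewise within Xlr4 and Xlr5, is uncertain.

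The start regions of 5 of the genes that differ most are shown, 4 that rose (Rhox5, Trap1a, Xlr3a and Cbx7) and 1 that fell (Cdx4), because the lineages are known to differ in methylation of CG dinucleotides. Each is the window of 300 bases around the start in RefSeq (GRCm38.p6, the assembly of mm10), 5′ to 3′ on the gene's strand, and capitals mark CG.
Rhox5, chrX:37754358-37754657, plus strand: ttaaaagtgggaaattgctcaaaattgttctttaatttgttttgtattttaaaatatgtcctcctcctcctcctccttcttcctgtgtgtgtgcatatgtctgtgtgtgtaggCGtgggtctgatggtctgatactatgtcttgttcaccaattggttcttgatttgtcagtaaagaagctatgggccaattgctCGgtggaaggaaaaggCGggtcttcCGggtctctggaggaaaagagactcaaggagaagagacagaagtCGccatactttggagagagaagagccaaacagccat
Trap1a, chrX:139333433-139333732, plus strand: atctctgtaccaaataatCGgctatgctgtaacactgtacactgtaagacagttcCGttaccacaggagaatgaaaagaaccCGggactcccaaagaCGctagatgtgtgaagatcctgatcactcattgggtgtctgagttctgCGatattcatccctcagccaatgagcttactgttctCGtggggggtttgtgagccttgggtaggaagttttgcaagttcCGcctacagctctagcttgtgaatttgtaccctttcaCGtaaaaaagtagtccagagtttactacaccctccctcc
Xlr3a, chrX:73097046-73097345, minus strand: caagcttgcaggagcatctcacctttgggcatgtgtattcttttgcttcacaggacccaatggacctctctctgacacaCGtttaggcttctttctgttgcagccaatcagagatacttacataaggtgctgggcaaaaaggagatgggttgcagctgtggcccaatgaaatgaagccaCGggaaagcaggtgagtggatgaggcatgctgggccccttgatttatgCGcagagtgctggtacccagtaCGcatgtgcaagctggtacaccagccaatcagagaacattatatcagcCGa
Cbx7, chr15:79932597-79932896, minus strand: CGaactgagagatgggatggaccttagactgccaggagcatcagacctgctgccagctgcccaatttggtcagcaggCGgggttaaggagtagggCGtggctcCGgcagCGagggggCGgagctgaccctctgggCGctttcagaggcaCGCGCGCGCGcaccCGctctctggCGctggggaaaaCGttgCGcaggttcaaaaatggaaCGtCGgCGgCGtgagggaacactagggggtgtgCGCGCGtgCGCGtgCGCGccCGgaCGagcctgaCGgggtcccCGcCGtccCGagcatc
Cdx4, chrX:103321148-103321447, plus strand: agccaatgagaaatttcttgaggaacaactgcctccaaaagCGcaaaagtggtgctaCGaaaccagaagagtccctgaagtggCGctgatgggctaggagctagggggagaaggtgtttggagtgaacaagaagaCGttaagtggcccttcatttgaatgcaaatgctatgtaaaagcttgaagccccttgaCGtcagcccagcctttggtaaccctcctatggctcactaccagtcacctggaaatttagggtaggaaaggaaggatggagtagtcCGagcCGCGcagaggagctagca
Rhox5 and Xlr3a hold 5 CG each, Trap1a and Cdx4 8 each, and Cbx7 holds 33. Of 32851 such windows over all genes, 43.6% hold 5 or fewer, 54.2% hold 8 or fewer and 92.3% hold 33 or fewer, with a median of 7. The Cbx7 window is thus rich in CG and the other 4 lie near the middle of the range, for genes that rose and for the gene that fell. The start in RefSeq is also that of the annotation used for Trap1a, Xlr3a and Cdx4, and is another start for Rhox5 and Cbx7. The Rhox5 window lies outside the gene span given above. The Cbx7 window lies inside the span given for that gene below, away from its annotated start. For Rhox5 and Cbx7 the CG counts may thus not describe the start in use. Methylation was not measured in these libraries.

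The cell cycle inhibitor locus Cdkn2a and the Polycomb gene Cbx7 were both higher in exHindgut. Cdkn2a (ENSMUSG00000044303, chr4:89274471-89294653), which encodes the p16 and p19 proteins, was 205, 183, 171 and 229 TPM in exHindgut against 2.03, 0.737, 0.188 and 3.22 TPM in emHindgut (difference 6.44, SE 0.33, adjusted p = 1.05e-08). Its neighbour Cdkn2b was 22.4, 9.67, 32.8 and 17.9 TPM against 1.94 to 5.2 TPM, a difference of 2.10 (adjusted p = 0.00554). Cdkn1a, the p21 inhibitor and a p53 target, was 586, 701, 490 and 541 TPM against 312, 277, 236 and 199 TPM, a difference of 1.18 (adjusted p = 0.000137). The 3 genes were the only ones called among 12 CDK inhibitor and D cyclin genes tested, and each was called with any single library left out.

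Cbx7 (ENSMUSG00000053411, chr15:79915807-79971119) encodes a chromodomain subunit of Polycomb repressive complexes, which act on the Cdkn2a locus in other cells. Its level was 112, 121, 167 and 146 TPM in exHindgut and 1.76, 1.58, 2.53 and 3.32 TPM in emHindgut (difference 5.39, SE 0.24, adjusted p = 2.02e-09). Of 25 Polycomb genes tested it was the only one called, and the median of the list was 0.08. Among 24 DNA methylation and silencing genes 0 were called by limma, with 4 at an unadjusted p under 0.05, all 4 lower, and a median of -0.09. Over all 12318 genes tested 1050 were higher and 1313 lower at that unadjusted p.

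Genes otherwise known from the germline were a small group of rises. Mageb16, a cancer-testis antigen gene on the X chromosome, was 50.4, 59.2, 27.9 and 47.1 TPM in exHindgut and listed at 0 in every emHindgut library (adjusted p = 5.70e-08). Slc25a31, a testis ADP/ATP carrier, was 2.80 to 9.56 TPM and Mov10l1, an RNA helicase of the piRNA pathway, 1.96 to 7.07 TPM, and both were listed at 0 in emHindgut. Tex19.1, a germ cell gene that restrains transposable elements, was 31.0, 11.7, 27.3 and 20.4 TPM against 0, 2.07, 0 and 0 TPM (difference 4.07, adjusted p = 7.56e-05). Rec8, the meiotic cohesin, was 31.0, 13.4, 24.2 and 30.0 TPM against 6.86, 0.723, 2.94 and 3.47 TPM (difference 2.64, adjusted p = 0.00248). Most genes of these classes fell below the filter, although 8 of 18 cancer-testis genes, 17 of 24 meiotic genes and 22 of 24 piRNA genes were above 0 in at least 1 library. Of 18 cancer-testis genes listed 3 passed the filter, of 24 meiotic cohesin and synaptonemal genes 6, and of 24 piRNA and germ cell defence genes 8, with 3, 1 and 2 called higher. The 3 cancer-testis genes, Trap1a, Mageb16 and Slc25a31, were at or near 0 in emHindgut and passed the filter through exHindgut. The study also named these 3 among genes higher in E9.5 gut libraries that include these. Their shared direction is therefore not independent evidence. Of 8 primordial germ cell genes tested 0 were called higher and 1 lower (Alpl, difference -1.0, lost without any 1 of 6 libraries), with 1 gene of the list higher and 1 lower at an unadjusted p under 0.05. The germ cell markers fixed for the check of the libraries summed to 1.34 to 6.07 TPM in exHindgut and 1.73 to 7.18 TPM in emHindgut.

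A group of p53 targets was higher in the extraembryonic cells, while Trp53 itself did not differ beyond the spread between libraries. Of 32 listed targets 28 were tested, 14 were called higher and 0 lower, and 27 of the 28 differences were positive, with a median of 1.03. At an unadjusted p under 0.05 there were 21 higher and 0 lower. The count of 14 was 12 to 14 with any single library left out. Some of these targets were picked by the study from genes higher in E9.5 gut libraries that include these, so the direction of the list is not independent evidence.

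Ccng1 (ENSMUSG00000020326, chr11:40748552-40755311), a cyclin induced by p53, was 158, 139, 90.2 and 155 TPM in exHindgut against 22.7, 21.3, 25.7 and 22.9 TPM in emHindgut, a difference of 2.47 (SE 0.18, adjusted p = 7.70e-07). Eda2r, an X-linked death domain receptor of the TNF receptor family, was 58.5, 91.1, 39.8 and 67.6 TPM against 5.85 to 10.1 TPM (difference 2.94, adjusted p = 8.08e-06). Phlda3, an inhibitor of Akt, was 147, 91.2, 130 and 243 TPM against 17.8 to 28.1 TPM (difference 2.72, adjusted p = 8.08e-06). For these 3 genes the lowest exHindgut library lies well above the highest emHindgut library. Ddit4l, an inhibitor of mTOR signalling, was 38.4 to 46.8 TPM against 5.08 to 8.83 TPM. The remaining called targets include Trp53inp1 (difference 1.94), Dcxr (1.76), the kinase gene Plk2 (1.5), Zmat3 (1.26) and the death receptor gene Fas, which was 1.65 to 7.46 TPM in exHindgut and listed at 0 in emHindgut. Perp, a desmosome-associated p53 target, was 31.2 to 56.7 TPM against 6.69 to 25.2 TPM (difference 1.59, adjusted p = 0.0185), and this call was lost without exHindgut replicate 4, emHindgut replicate 3 or emHindgut replicate 4.

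Bax and Pmaip1 passed the adjusted p without a call, and Mdm2 did not pass. Bax, a pore-forming member of the Bcl2 family, was 725, 715, 683 and 878 TPM in exHindgut against 449, 480, 454 and 462 TPM in emHindgut, a difference of 0.69 (SE 0.09, adjusted p = 0.000304) that is below the 2-fold threshold with no overlap of the groups. Pmaip1, which encodes the BH3-only protein Noxa, was 27.3, 42.8, 26.5 and 39.3 TPM against 12.2 to 18.4 TPM (difference 1.00, adjusted p = 0.0213). Mdm2, the p53 ubiquitin ligase, was 32.6 to 61.0 TPM against 27.8 to 45.9 TPM, with overlapping groups (difference 0.30, adjusted p = 0.511). Of 21 other Bcl2 family and caspase genes tested 0 were called by limma, 2 were higher and 3 lower at an unadjusted p under 0.05, and the median was 0.07.

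Secreted products of the visceral endoderm were present at low and uneven levels. Afp (ENSMUSG00000054932, chr5:90490737-90508907), the fetal serum protein alpha-fetoprotein, was 22.1, 109, 437 and 176 TPM in exHindgut and 4.83, 2.13, 18.9 and 6.05 TPM in emHindgut (difference 4.06, SE 0.70, adjusted p = 0.00362). The groups do not overlap, but exHindgut replicate 1 lies close to the highest emHindgut library. Ttr, the thyroid hormone carrier transthyretin, was 4.48, 95.9, 201 and 125 TPM against 3.49, 0, 18.9 and 4.28 TPM, so the groups overlap (difference 3.70, SE 0.97, adjusted p = 0.0404). Spink1, a trypsin inhibitor, was 11.5, 46.0, 101 and 96.8 TPM against a mean of 7.98 ± 6.03 TPM (SD, n = 4) and also overlaps (difference 2.80, adjusted p = 0.0208).

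Of 27 listed visceral endoderm secreted and transport genes 17 passed the filter and 5 were called higher, Afp, Ttr, Spink1, Apob and Fgg, with a median of 0.77. This count ranged from 2 to 5 with 1 library left out, 2 without exHindgut replicate 3, exHindgut replicate 4 or emHindgut replicate 2 and 3 without exHindgut replicate 2 or emHindgut replicate 1. Apob, the structural protein of lipoproteins, was 3.05 to 6.04 TPM against at most 1.09 TPM, and Fgg, a fibrinogen chain, at least 3.61 TPM against at most 2.78 TPM. Apoa1 was not called, at 0, 2.69, 7.22 and 7.88 TPM in exHindgut and 0.302 to 4.94 TPM in emHindgut. The endocytic receptor gene Cubn was at 0 in every exHindgut library. Of 13 endocytic receptor genes tested 0 were called higher by limma, and 0 were higher at an unadjusted p under 0.05. Of 3 anterior visceral endoderm genes tested 0 were called, and 0 passed an unadjusted p of 0.05.

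Among the most abundant called rises were also genes that are not lineage markers. Commd3, an endosomal sorting component, was 577, 608, 535 and 603 TPM in exHindgut against 169, 222, 196 and 196 TPM in emHindgut (difference 1.57, SE 0.10, adjusted p = 9.63e-08). Gm10260 was 309 to 545 TPM against 69.6 to 98.6 TPM. The splicing factor gene Cwc22, named here after its values were seen, was 203, 327, 210 and 403 TPM against 23.6 to 33.2 TPM, a difference of 3.30. The groups do not overlap in any of the 3 genes. Cwc22 is known to vary in copy number between mouse strains, and lineage origin and genetic background cannot be told apart here.

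Imprinted genes, which are expressed from 1 parental allele, moved in both directions. Nnat was 31.2, 37.3, 25.1 and 13.8 TPM in exHindgut against 0.986 to 2.18 TPM in emHindgut (difference 3.46, SE 0.36, adjusted p = 3.53e-05). Sfmbt2, a Polycomb-related gene of the placenta, was 5.21 to 11.9 TPM against 0.346 to 1.87 TPM (difference 2.18, adjusted p = 0.00485). Zdbf2 and the amino acid transporter gene Slc38a4 went the other way. Zdbf2 was at most 0.585 TPM in exHindgut against 7.88, 5.85, 6.92 and 7.39 TPM in emHindgut (difference -2.71, adjusted p = 0.000593). Slc38a4 was 14.3, 28.5, 29.8 and 0 TPM against 98.8, 107, 105 and 88.1 TPM (difference -3.21, SE 0.77, adjusted p = 0.0260), a call lost without any 1 of the emHindgut libraries. Of 22 genes listed as paternally expressed and tested, 3 were called higher and 2 lower. Another list of imprinted genes had 12 tested and 2 called higher, Gab1 (difference 1.54) and Phlda2. Phlda2 had a difference of 1.05 with overlapping groups, and its call was lost without any 1 of 5 libraries. The parental allele of the transcripts was not measured. Igf2, a fetal growth factor, was 74.6 to 83.3 TPM against 198, 191, 119 and 109 TPM, a difference of -0.92 (adjusted p = 0.00892) that is below the 2-fold threshold.

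**Figure D2:**
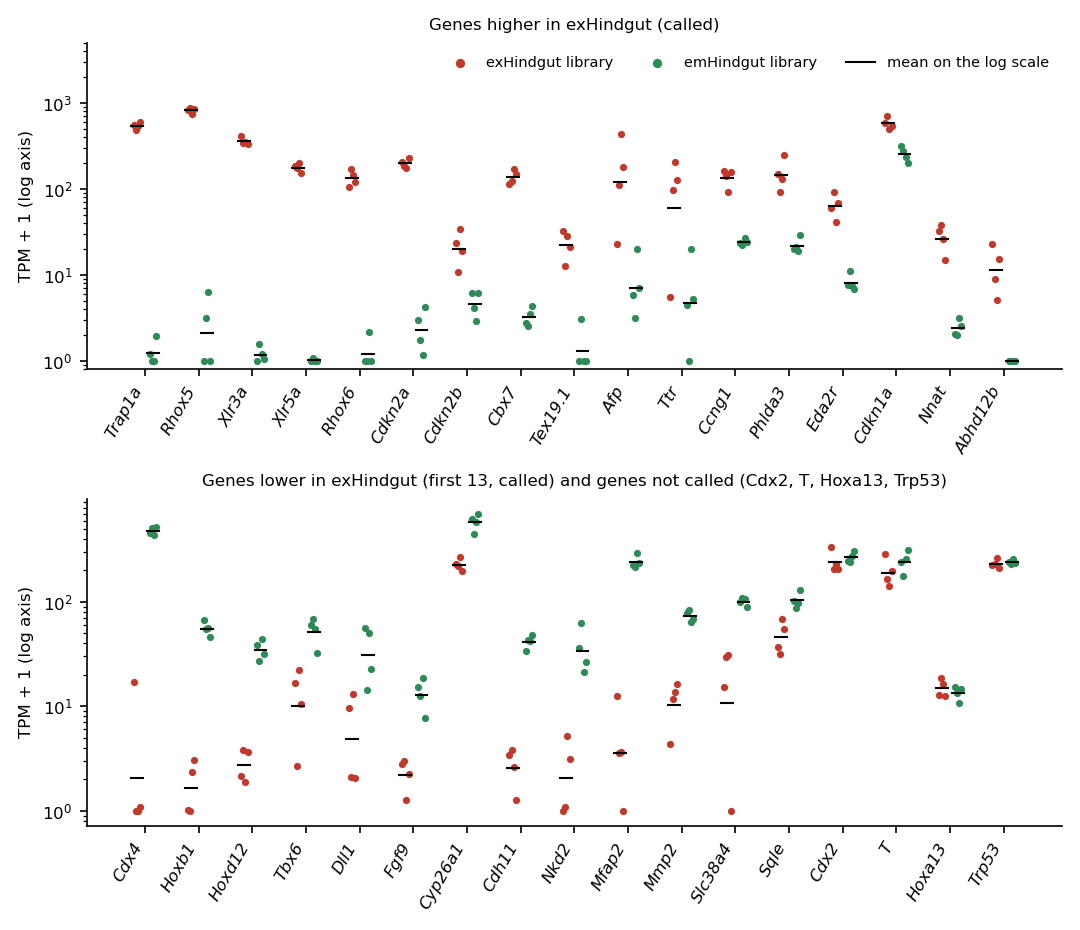
Level of selected genes in each of the 8 libraries (TPM + 1, log axis), with exHindgut in red, emHindgut in green and a bar at the group mean on the log scale. Trap1a, Rhox5 and Xlr3a lie at 328 TPM or above in every exHindgut library, Afp and Ttr are low in exHindgut replicate 1, and Cdx4 is 437 TPM or more in every emHindgut library and at most 16.2 TPM in exHindgut.

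Apart from the reporter EGFP, the largest fall was that of Cdx4, a caudal homeobox gene of the posterior embryo. Cdx4 (ENSMUSG00000031326, chrX:103321398-103330592) was 451, 509, 437 and 526 TPM in emHindgut and 16.2, 0, 0 and 0.0797 TPM in exHindgut (difference -7.85, SE 0.68, adjusted p = 5.11e-06). Its paralogue Cdx2 was 334, 205, 231 and 205 TPM in exHindgut against 248, 242, 272 and 306 TPM in emHindgut, with overlapping groups (difference -0.16, SE 0.15, adjusted p = 0.626). T, the tail bud and notochord factor Brachyury, was 286, 163, 141 and 195 TPM against 239, 177, 258 and 312 TPM and was not called (difference -0.35, adjusted p = 0.372). The posterior genes Hoxa13, Hoxd13, Hoxb9 and Hoxc9 were not called either, with differences of 0.15, -0.44, -0.32 and -0.03.

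Of 26 hindgut and tail bud genes listed 24 were tested, and 0 were called higher and 5 lower, namely Cdx4, Tbx6, Cyp26a1, Lin28b and Wnt3a, with a median of -0.31. At an unadjusted p under 0.05 there were 0 higher and 9 lower. Tbx6, a T-box factor of presomitic mesoderm, was 15.6, 1.66, 21.2 and 9.62 TPM in exHindgut against 58.9, 67.4, 53.7 and 31.4 TPM in emHindgut (difference -2.36, adjusted p = 0.0134). Cyp26a1, the enzyme that breaks down retinoic acid, was 231, 218, 265 and 196 TPM against 625, 447, 586 and 699 TPM (difference -1.36, SE 0.13, adjusted p = 1.76e-05). Lin28b, a regulator of let-7 miRNAs, and Wnt3a, a tail bud ligand, had differences of -1.23 and -1.01, and their calls were lost without any 1 of 3 and 6 libraries. The list gave 3 calls without emHindgut replicate 3 or emHindgut replicate 4.

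Some markers of mesenchyme and mesoderm were lower in exHindgut too, and their part in these falls was not tested. Of 16 listed 9 passed the filter, 3 were called lower (Twist1, Twist2 and Pdgfrb) and 0 higher, with 6 lower and 0 higher at an unadjusted p under 0.05 and a median of -1.40. The 16 genes summed to 30.3 to 37.5 TPM in exHindgut and 66.4 to 97.4 TPM in emHindgut, and Foxf1, a defining marker of gut mesenchyme, was at most 0.0898 TPM in exHindgut and 2.46, 0.0707, 0.498 and 0 TPM in emHindgut. Twist1 was 5.21, 0.689, 2.33 and 0.736 TPM against 7.11 to 13.1 TPM. The 3 calls were 0 without emHindgut replicate 1, 2 without emHindgut replicate 2, 3 without exHindgut replicate 1 and 1 without any other library.

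Hox genes of 4 clusters were expressed in both groups. Of 38 tested, 6 were called lower, 9 passed the adjusted p alone, all 9 lower, and 29 had a negative difference. Hoxb1 (ENSMUSG00000018973, chr11:96365752-96368256), the most 3′ gene of its cluster, was 65.5, 54.5, 54.8 and 45.3 TPM in emHindgut and 0.0169, 0, 1.33 and 2.05 TPM in exHindgut (difference -5.08, SE 0.38, adjusted p = 9.85e-07). Hoxd12 (ENSMUSG00000001823, chr2:74675013-74677705), near the 5′ end of another cluster, was 37.7, 26.4, 43.4 and 30.4 TPM against 1.13, 2.80, 0.903 and 2.67 TPM (difference -3.67, SE 0.33, adjusted p = 7.21e-06). In both genes every exHindgut library lies far below every emHindgut library. None was called higher, and the other 4 called lower were Hoxb2 (-1.35), Hoxc12 (-1.31), Hoxa5 (-1.08) and Hoxb7 (-1.07), with a median of -0.44. At an unadjusted p under 0.05 there were 18 lower and 0 higher, and the 6 calls became 4 without emHindgut replicate 1. The calls of Hoxc12 and Hoxa5 were each lost without any 1 of 5 libraries, and that of Hoxb7 without exHindgut replicate 3. Hoxc10 was 62.7 to 103 TPM against 155 to 174 TPM, a difference of -0.96 (adjusted p = 0.00132) just under the threshold. No Hox gene differs in the opposite direction by as much, and the highest difference was 0.38, for Hoxd9.

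**Figure D3:**
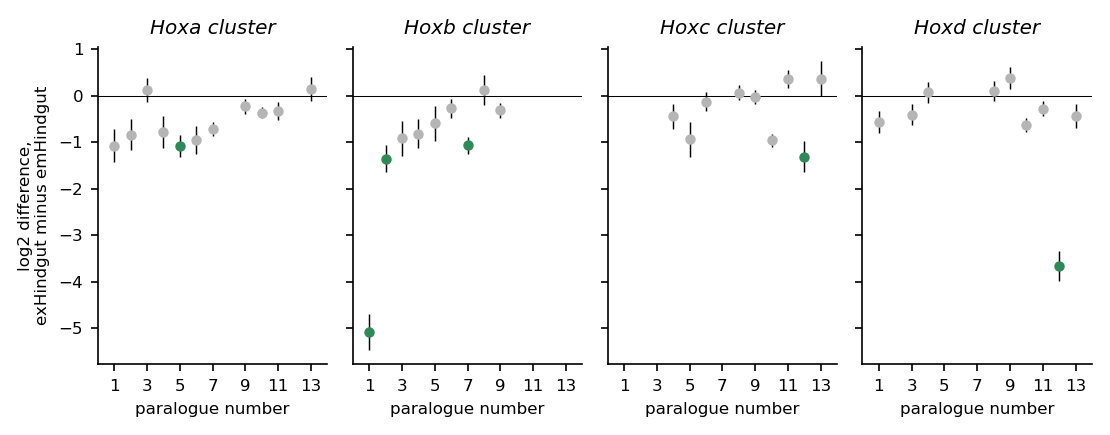
Difference between exHindgut and emHindgut (log2) for each tested Hox gene by cluster and paralogue number, with error bars of 1 SE and green for genes called lower. Hoxb1 at -5.08 and Hoxd12 at -3.67 stand apart from the other members, whose differences lie between -1.35 and 0.38.

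Single members of several signalling pathways were lower, and no pathway was lower throughout. Of 23 FGF pathway genes tested 4 were called lower and 0 higher, the ligand genes Fgf3 and Fgf9, the receptor gene Fgfr3 and the feedback inhibitor gene Spry4, with 7 lower and 0 higher at an unadjusted p under 0.05. Fgf9 was 1.80, 2.01, 0.256 and 1.25 TPM in exHindgut against 14.1, 11.6, 17.7 and 6.76 TPM in emHindgut (difference -2.55, SE 0.40, adjusted p = 0.00208). Fgf3 was 9.58, 0.448, 3.44 and 2.27 TPM against 34.3, 34.4, 25.4 and 7.88 TPM, so its groups overlap (difference -2.59). Fgf8, the main tail bud ligand, was 591, 431, 376 and 321 TPM against 532, 319, 455 and 451 TPM (difference -0.04, adjusted p = 0.933). The count of 4 fell to 1 without emHindgut replicate 1 and to 2 without exHindgut replicate 3, exHindgut replicate 4, emHindgut replicate 2 or emHindgut replicate 3.

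Of 19 Notch pathway genes tested 2 were called, the ligand genes Dll1 and Dll3, both lower. Dll1 was 8.58, 1.12, 12.1 and 1.08 TPM in exHindgut against 55.2, 13.2, 49.5 and 21.8 TPM in emHindgut (difference -2.67, SE 0.60, adjusted p = 0.0187), a call lost without emHindgut replicate 1 or 3. Dll3 was 0.258 to 6.74 TPM against 10.0 to 26.5 TPM (difference -2.57). In the retinoic acid pathway Crabp1, a binding protein, was 27.4, 53.4, 35.2 and 42.5 TPM against 273, 252, 119 and 114 TPM (difference -2.16, SE 0.28, adjusted p = 0.000316). The synthesis enzyme genes split, with Aldh1a2 lower (3.70 to 13.1 TPM against 17.9 to 37.3 TPM) and Aldh1a1 higher (5.47 to 8.62 TPM against 0.908 to 2.13 TPM). In all, 16 genes of this pathway were tested, 3 were called lower and 1 higher, and the calls of Aldh1a2 and Aldh1a1 were each lost without any 1 of 2 libraries.

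Nkd2, a feedback inhibitor of Wnt signalling outside the fixed Wnt list, was 35.5, 62.0, 20.5 and 25.6 TPM in emHindgut and 0, 0.0789, 4.17 and 2.13 TPM in exHindgut (difference -4.05, SE 0.52, adjusted p = 0.000285). Of 33 Wnt pathway genes tested 1 was called lower, Wnt3a, and 0 higher, with 6 lower and 1 higher at an unadjusted p under 0.05. Of 26 BMP and TGF-beta genes 0 were called by limma, with 4 higher and 1 lower at an unadjusted p under 0.05, and of 14 hedgehog genes 0, with 1 higher and 2 lower. Shh, the hedgehog ligand of gut endoderm, was 16.7, 66.9, 60.2 and 51.3 TPM in exHindgut and 45.4 to 86.6 TPM in emHindgut.

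Of the extracellular matrix lists, each gave 1 to 3 called falls and 0 called rises. Mfap2 (ENSMUSG00000060572, chr4:141010418-141015984), which encodes a microfibril glycoprotein, was 226, 212, 290 and 237 TPM in emHindgut and 11.6, 2.59, 2.68 and 0 TPM in exHindgut (difference -6.07, SE 0.51, adjusted p = 4.11e-06). Mfap4 was 13.7 to 19.5 TPM in exHindgut against 41.9 to 55.4 TPM, and Lama1, a laminin chain of basement membranes, 9.01 to 15.4 TPM against 19.5 to 30.2 TPM. The groups are separate in all 3. Of 17 microfibril and elastic fibre genes tested 3 were called lower (Mfap2, Mfap4 and Emilin2), of 21 matrix proteases and inhibitors 2 (Mmp2 and Mmp16), and of 23 basement membrane genes 1 (Lama1), with medians of -0.11, 0.08 and 0.23. At an unadjusted p under 0.05 the microfibril list had 1 higher and 4 lower, the protease list 1 and 4, and the basement membrane list 7 and 1. The calls of Emilin2 and Mmp16 were each lost without any 1 of 6 libraries, and that of Lama1 without emHindgut replicate 1 or 2.

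Cdh11 (ENSMUSG00000031673, chr8:102632095-102785642), a cadherin best known from mesenchyme, was 32.8, 42.4, 41.5 and 47.6 TPM in emHindgut and 2.41, 2.79, 1.61 and 0.261 TPM in exHindgut (difference -4.03, SE 0.35, adjusted p = 5.97e-06). Ncam1, a neural cell adhesion molecule also present in early mesoderm and epithelia, was 54.4 to 73.9 TPM against 25.0, 16.6, 6.95 and 25.0 TPM (difference -1.78). Chl1 and Lrrn1, both neural adhesion genes, were 1.27 to 3.71 TPM in emHindgut and at most 0.431 TPM in exHindgut, and each call was lost without any 1 of 6 or more of the libraries. Tagln3, a neuronal calponin, was 14.2 to 21.3 TPM in emHindgut and 4.23, 0, 0 and 0 TPM in exHindgut, and the intermediate filament gene Nes was 13.6 to 18.8 TPM against 2.05 to 3.36 TPM. Pax6 was at most 0.147 TPM in all 8 libraries, and the 5 neural markers together summed to at most 1.38 TPM. Of 22 neural adhesion genes tested 3 were called lower and 0 higher, with a median of -0.17 and 0 higher at an unadjusted p under 0.05, and the 3 calls became 1 with any 1 of 5 libraries left out.

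Other called falls are given gene by gene. Wfdc2, a secreted epithelial protease inhibitor, was 124, 114, 150 and 104 TPM in emHindgut and 35.9, 15.2, 32.3 and 43.1 TPM in exHindgut (difference -2.0, SE 0.25, adjusted p = 0.000249). Wfdc2 belongs to the list of nephric duct and cloaca neighbour markers. Of the 6 tested members of that list 1 was called lower, 0 had a positive difference and the median was -0.53. H2-Q6, a non-classical MHC class I gene, was 15.9, 4.41, 12.2 and 15.7 TPM against at most 1.04 TPM (difference -2.88). It was the only call among 17 MHC class I and antigen processing genes tested, and the reads of this family of near-identical genes, which also differ between strains, can be split among copies. S1pr3, a sphingosine phosphate receptor, was 9.78 to 27.1 TPM in emHindgut and 0.488 to 5.26 TPM in exHindgut. Arl5c was 27.3 to 42.3 TPM in emHindgut, 0 TPM in 3 exHindgut libraries and 25.2 TPM in exHindgut replicate 4.

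Genes of cholesterol synthesis and uptake were lower as a group and by moderate amounts. Of 24 tested 7 were called lower and 0 higher, 14 passed the adjusted p alone (3.08% of all genes tested did so downward), 23 differences were negative and the median was -0.80. Sqle, squalene epoxidase, was 36.3, 30.5, 67.1 and 53.6 TPM in exHindgut against 101, 86.8, 97.0 and 128 TPM in emHindgut (difference -1.18, SE 0.22, adjusted p = 0.00613). Idi1 was 39.0 to 75.5 TPM against 92.9 to 141 TPM (difference -1.16), and Hmgcs1 63.3 to 144 TPM against 162 to 255 TPM (difference -1.05). All 4 exHindgut values lie below all 4 emHindgut values in each of these 3 genes. The count of 7 was 3 without emHindgut replicate 1 and 4 without exHindgut replicate 1, emHindgut replicate 2 or emHindgut replicate 4, and 8 without exHindgut replicate 3.

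Glycolysis genes were lower by less, with 5 of 20 tested past the adjusted p alone and a median of -0.45. Gapdh was 2257, 2286, 2219 and 2009 TPM in exHindgut against 3693, 3572, 3053 and 3314 TPM in emHindgut (difference -0.63, SE 0.07, adjusted p = 0.000137), and Eno1 was 1606 to 2133 TPM against 2740 to 3604 TPM (difference -0.67). Neither gene overlaps between the groups, and both differ by less than 2-fold. Pfkp, a phosphofructokinase isoform, was the only call in this list, at 5.00, 1.72, 4.33 and 0.242 TPM against 9.76 to 31.1 TPM (difference -2.40, adjusted p = 0.0117).

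Proliferation and mitosis genes showed a small, one-sided difference with 0 calls among 30 tested by limma. Of these 29 were lower in exHindgut, 5 passed the adjusted p alone, 13 were lower and 0 higher at an unadjusted p under 0.05, and the median was -0.39. Mki67 was 16.7 to 31.7 TPM in exHindgut against 26.9 to 34.6 TPM in emHindgut and Top2a 84.4 to 163 TPM against 159 to 218 TPM, with overlapping groups in both. Pclaf, a factor that binds PCNA at replication forks, was not in the list and was called, at 168, 164, 157 and 111 TPM against 434, 513, 432 and 448 TPM (difference -1.62, SE 0.13, adjusted p = 1.82e-06). Histone genes, grouped by symbol after their values were seen, gave 15 calls lower and 1 higher of 59 tested, with a median of -0.66. Their summed level was 1107 to 1575 TPM in exHindgut and 2122 to 2710 TPM in emHindgut, and Hist1h2ap, one of the most abundant, was 101, 229, 307 and 104 TPM against 356 to 547 TPM. Most histone transcripts lack a poly(A) tail and their genes are near-identical copies, so these levels depend on the poly(A) library and on how reads were split.

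Genes of epithelial and endoderm identity differed little. Of 33 epithelial junction and polarity genes tested 0 were called by limma, 27 were higher in exHindgut, 3 passed the adjusted p alone, 10 were higher and 1 lower at an unadjusted p under 0.05, and the median was 0.26. Epcam, the adhesion molecule used in the sort, was 492, 563, 659 and 479 TPM in exHindgut against 344, 331, 410 and 417 TPM in emHindgut (difference 0.54, adjusted p = 0.0136). Krt18 was 548 to 794 TPM against 305 to 499 TPM (difference 0.77, adjusted p = 0.00623), and Llgl2, a polarity factor, 32.1 to 42.7 TPM against 13.1 to 26.9 TPM (difference 0.84, adjusted p = 0.0452). Cdh1, which encodes E-cadherin, was 50.5 to 85.0 TPM against 49.5 to 69.2 TPM, with overlapping groups.

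Of 14 endoderm transcription factor genes tested 0 were called by limma and 1 was higher and 0 lower at an unadjusted p under 0.05, with a median of 0.15. Foxa2 was 31.1, 53.6, 62.0 and 51.0 TPM in exHindgut against 54.3, 48.6, 44.1 and 52.3 TPM in emHindgut (difference -0.05, SE 0.20, adjusted p = 0.934), and Sox17 was 12.2 to 39.7 TPM against 12.7 to 26.5 TPM. With 4 libraries a group a p that misses the threshold does not show equal levels.

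**Figure D4:**
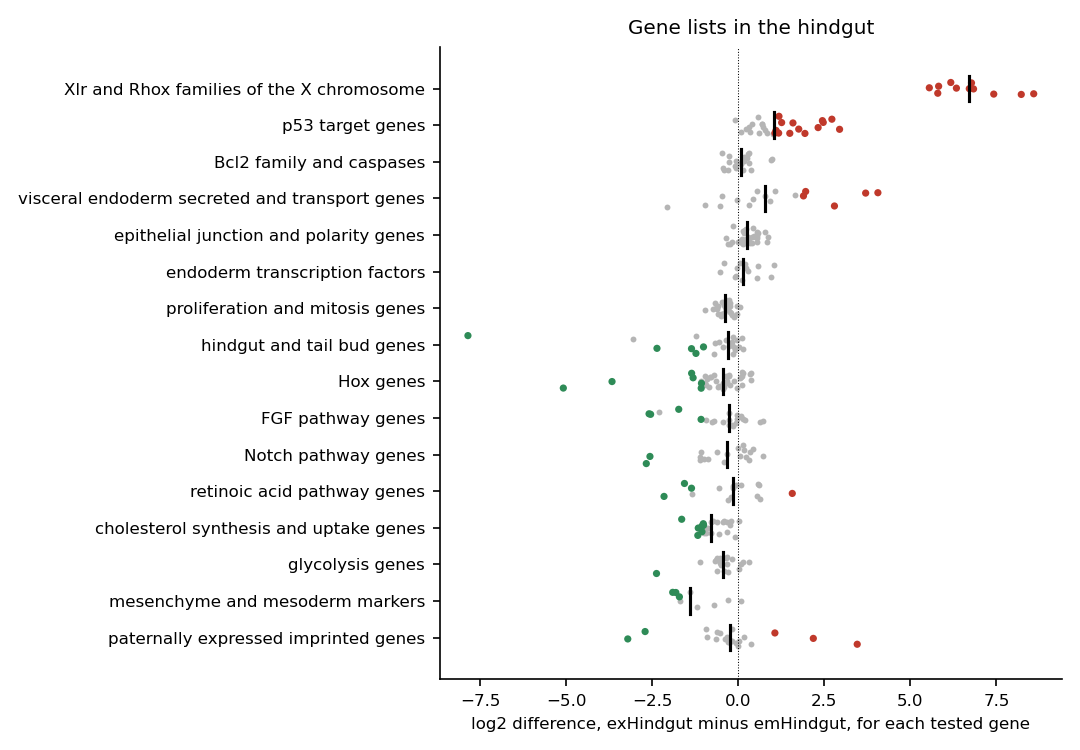
Difference between exHindgut and emHindgut (log2) of every tested gene in 16 lists, with red for genes called higher, green for genes called lower, grey for the rest and a black bar at the list median. Xlr and Rhox genes lie at 5.55 or above, p53 targets have a median of 1.03, cholesterol genes one of -0.80, and the lists of tail bud, Hox and FGF genes hold a few strong falls beside members near 0.

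Called rises were unevenly placed in the genome. On the X chromosome 25 of 455 tested genes were called higher (5.49%) and 7 lower (1.54%), against 144 (1.21%) and 202 (1.70%) of 11863 tested elsewhere. Without the 11 tested genes of the Xlr and Rhox list 14 of 444 tested X-linked genes were called higher (3.15%), among them Xlr itself, which was not in the list (difference 2.89). The median difference of tested X-linked genes was 0.03, and among 5 tested genes of X inactivation and escape 0 were called, with 1 higher at an unadjusted p under 0.05. Sex composition and lineage origin cannot be told apart for these X-linked differences. Of the 13 called genes in the stretch of the X chromosome from 72987339 to 73655994, 10 are Xlr genes or DXBay18 and the others are Zfp185, Pnma5 and Pnck.

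Called genes also lay in runs on other chromosomes, defined after the values were seen as 4 or more calls of the same direction at most 1 Mb apart. In all, 67 of the 378 calls fall into 7 runs, and 311 lie outside them. On chromosome 14 from 3208488 to 7545151, 18 of 40 tested genes were lower, with differences from -2.01 to -1.35. One of them, Gm3020, was 0.480, 0.807, 2.27 and 0.699 TPM in exHindgut against 4.34 to 7.2 TPM in emHindgut. On chromosome 2 from 175166255 to 177903340, 10 of 34 tested genes were higher, among them the zinc finger genes Zfp970 (20.6 to 38.9 TPM against 5.82 to 8.38 TPM) and Zfp972 (5.96 to 19.2 TPM against 0.481 to 3.66 TPM). On the same chromosome 7 genes of the Gm13691 to Gm13698 group had nearly equal values in every library (within 5%), so they count as 1 signal at most. The run on chromosome 11 holds Ngfr, Hoxb7, Hoxb2 and Hoxb1, and 2 runs on chromosome 13 hold 14 histone genes. Where a run holds near-identical copies, reads can be split among them. Lineage origin and genetic background cannot be told apart in any of the runs.

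The neighbouring midgut gave the same contrast in libraries that the hindgut comparison does not use. There, 4 exMidgut and 4 emMidgut libraries gave 321 calls among 12432 genes tested (2.58%), 153 higher (1.23%) and 168 lower (1.35%). Of the 169 hindgut rises 153 were tested in the midgut, 71 were called higher and 0 lower (1 was lower at an unadjusted p under 0.05), and the median midgut difference was 1.43. Of the 209 hindgut falls 165 were tested, 66 were called lower and 0 higher (0 at an unadjusted p under 0.05), with a median of -1.26. The midgut medians over all genes tested were -0.04. The 2 regions share their genetic backgrounds and reporters and may share embryos, so the midgut is not independent support for these differences. The 4 Y-linked genes summed to 19.8, 138, 80.1 and 135 TPM in exMidgut, where replicate 1 is the lowest library, as it is in exHindgut.

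Whether the origin difference itself differs between the regions was tested as an interaction over the 16 gut libraries. Of 13473 genes 13 passed an adjusted p of 0.05 (0.0965%), 6 with a hindgut difference above the midgut one (0.0445%) and 7 below it (0.052%). With the replicate number as a block 8 passed, 7 of them among the 13, and 8 passed without the mean-variance trend or with no filter. With a pseudocount of 0.1 limma gave 0, with 1008 at an unadjusted p under 0.05. Leaving out 1 library gave 3 to 19, with 3 without emMidgut replicate 2 or emMidgut replicate 3, 5 without emHindgut replicate 1, exHindgut replicate 2 or exHindgut replicate 4, 6 without emHindgut replicate 3, 7 without emHindgut replicate 2 or emHindgut replicate 4, and 8 without exHindgut replicate 3. Of the 318 genes called in the hindgut and tested in the midgut 3 passed, Nkd2, Ak1 and Fgl1. Hoxb1, Hoxd12, Cdh11 and Abhd12b also passed and were called in the hindgut, and were too low in the midgut to be tested there.

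Hoxb1 had an interaction of -5.04 (SE 0.54, adjusted p = 0.000118), being at most 0.122 TPM in all 8 midgut libraries. Cdh11 was at most 1.35 TPM there (interaction -3.76, adjusted p = 0.00579) and Hoxd12 at most 2.00 TPM (interaction -3.27, adjusted p = 0.0294). All 3 were expressed in emHindgut and nearly absent from the midgut libraries of both origins. Nkd2 was 0.140 to 3.99 TPM in exMidgut and 0.442 to 1.93 TPM in emMidgut, with no called difference (interaction -4.41, adjusted p = 0.0294). Ak1, an adenylate kinase gene, was 39.3, 49.3, 49.2 and 68.4 TPM in exHindgut against 19.7 to 21.3 TPM in emHindgut and 21.2 to 33.6 TPM against 24.4 to 40.2 TPM in the midgut (interaction 1.53, adjusted p = 0.0379). Abhd12b was 22.0, 7.99, 4.1 and 14.4 TPM in exHindgut, listed at 0 in emHindgut and at most 0.0401 TPM in the midgut.

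The fall of Cdx4 was not shown to be particular to the hindgut. In the midgut it was 42.6, 34.4, 3.57 and 2.83 TPM in emMidgut and at most 0.147 TPM in exMidgut (difference -3.63, adjusted p = 0.0121), and the interaction of -4.22 had an adjusted p of 0.199. The p53 targets gave 8 calls of 28 tested in the midgut, all 8 higher, with a median of 0.63, and 0 of them passed the interaction. The visceral endoderm secreted and transport genes gave 15 calls higher and 1 lower of 26 tested there, with a median of 1.77, and Afp was 4641 to 8162 TPM in exMidgut against 662 to 978 TPM in emMidgut. Trf, which encodes transferrin, was the only member of that list to pass the interaction (-2.19, adjusted p = 0.0379). It was 10.9 to 24.4 TPM in exHindgut and up to 38.3 TPM in emHindgut, without a call and with overlapping groups, and 165 to 319 TPM in exMidgut against 61.7 to 81.7 TPM in emMidgut.

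**Figure D5:**
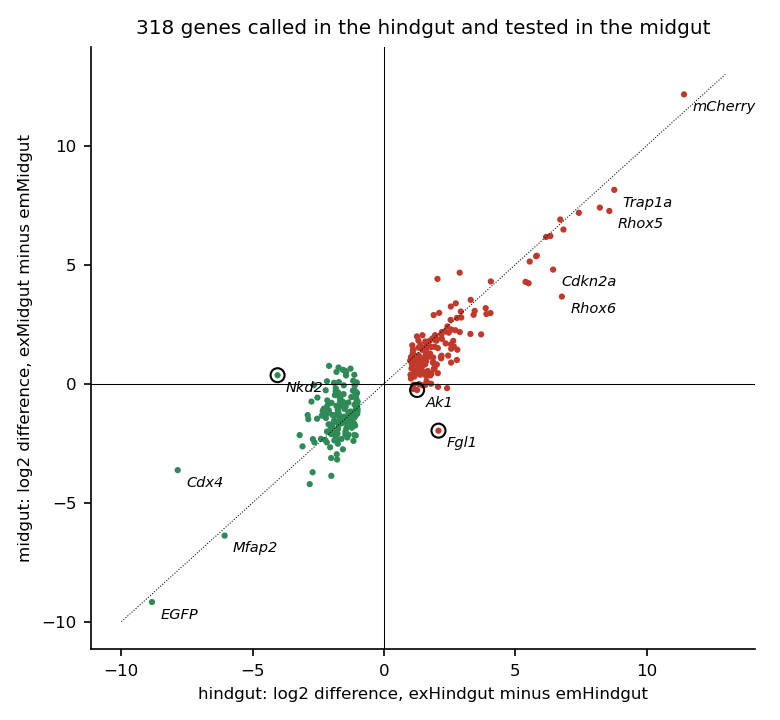
Origin difference in the midgut (log2, vertical axis) against that in the hindgut (log2, horizontal axis) for the 318 genes called in the hindgut and tested in the midgut, with red for hindgut rises and green for hindgut falls. Circles mark the 3 genes that pass the interaction, Nkd2, Ak1 and Fgl1, and Cdx4 lies at -7.85 in the hindgut and -3.63 in the midgut.

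Hindgut calls were looked up in the progenitors of the lineages, exEndo1 (distal extraembryonic endoderm) against Epi (epiblast) at E6.5, 4 libraries each. These embryos were made by the same two-colour lineage tracing. Reporter and genetic background change with origin there too, so shared calls are not independent support for an effect of origin. That comparison gave 4024 calls of 12057 genes tested (33.4%), 2389 higher (19.8%) and 1635 lower (13.6%). Of 134 hindgut rises tested there, 91 were called higher and 7 lower, and of 158 hindgut falls 107 were called lower and 12 higher. Of the whole p53 target list, whether called in the hindgut or not, 6 of 28 tested were called higher and 4 lower at E6.5. This is to be read against 19.8% and 13.6% of all genes tested there. Targets called in the hindgut were not counted apart. Ccng1 and Eda2r, both called in the hindgut, had differences of 0.01 and -0.71 at E6.5, and Phlda3 had one of -0.87. Cdkn2a, Cbx7 and Tex19.1 were already higher at E6.5, by 4.06, 1.94 and 2.87. No Hox gene was above the filter at E6.5, so the Hox falls have no counterpart there.

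In the colon at E13.5, which the hindgut forms, extraembryonic cells were Trp53 knockout and embryonic cells were wild type. Genotype, origin, genetic background and reporter therefore change together there. Trp53 was 42.5, 124 and 122 TPM in exColon and 151, 226 and 245 TPM in emColon, and since the knockout was made with Cas9 and guide RNAs against exons of the gene, the level over the whole gene does not check the genotype. With 3 exColon and 3 emColon libraries there were 30 calls of 11167 genes tested (0.269%), 26 higher (0.233%) and 4 lower (0.0358%). Of 125 hindgut rises tested there 21 were called higher and 0 lower (4 at an unadjusted p under 0.05), and of 131 hindgut falls 2 were called lower, EGFP and Mfap2, and 0 higher (7 at an unadjusted p under 0.05). The 21 rises comprise 9 Xlr3, Xlr4 and Xlr5 genes, Rhox5, Rhox6, Trap1a, Mageb16, Tex19.1, Cdkn2a, Afp, Tfpi, Sfi1, Phf11d, 3830403N18Rik and mCherry. Of these Rhox6 alone was not called in the midgut (difference 3.66, adjusted p = 0.0744), and all 21 were called at E6.5. Of 26 p53 targets tested in the colon 0 were called in either direction by limma. Ccng1 and Phlda3 had differences of -0.18 and -2.46 there, whose adjusted p of 0.948 and 0.468 did not pass the threshold.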

How the data were processed

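RNA was measured in low-input poly(A) libraries made with a Smart-seq2 type protocol from sorted cells. The authors trimmed reads with cutadapt (version 4.1), aligned them with STAR (version 2.7.9a) to mm10 with both reporter sequences added, and estimated gene levels with StringTie (version 2.0.6), as the submitters' processing notes and the methods state. The deposited files give TPM, FPKM and coverage for each library, with replicates kept apart. The deposited TPM values were summed per gene identifier and used for all levels and tests, the deposited FPKM values served as an alternative, and the deposited coverage gave the depth. Gene names and types came from GENCODE (32235 of 32287 identifiers matched).

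Protein-coding genes outside the Y chromosome and the transgenes were tested with limma (version 3.58.1, R 4.3.3, lmFit and eBayes with a trend, two-sided) on log2(TPM + 1) when above 1 TPM in at least 4 libraries (3 in the colon). Calls needed a Benjamini-Hochberg adjusted p under 0.05 and an absolute log2 difference above 1, and the interaction over the 16 gut libraries the adjusted p alone. Xist, Tsix, H19 and Gt(ROSA)26Sor were tested in a fit over all gene types. In simulated data on 12318 genes for the hindgut comparison, 69% of genes changed by 1.5 on the log2 scale and 93% of those changed by 3 were recovered, with 4 false among 166 calls. The simulated noise was normal and independent between genes and libraries, so these rates do not cover effects shared by a library. Named genes are the 12 largest separated rises and falls, the 6 most abundant calls each way, up to 4 calls and the defining members of each of 52 lists, cell type markers, reporters, Trp53, Xist, and the 10 largest interaction genes. A few others (Cwc22, Tsix, H19, Gt(ROSA)26Sor, Pclaf, Pnck, Zfp185, Zfp970, Zfp972, Gm3020, Tfpi and genes of the genomic runs) were named after their values were seen. The libraries, lists and tests were chosen with earlier results of these data known. Alternatives changed the pseudocount, filter, scaling, unit, trend, gene types, block, pooling of regions and each library in turn. Single-gene results for a few members of the lists are not reported here.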

Additional observations from a re-analysis of the deposited data

Results flagged for a closer look

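In 11 of 252 pairs of a named gene and a group, 1 library of 4 stood apart from the other 3 by Dixon's test. Chance alone flags about 1 in 20 groups. In exHindgut, Cdx4 was 16.2 TPM in replicate 1 and at most 0.0797 TPM in the others, and Tagln3 was 4.23 TPM in replicate 1 and listed at 0 in the others. EGFP was 2.38 TPM in exHindgut replicate 2. In exHindgut replicate 3, S1pr3 was 5.26 TPM, Emilin2 1.92 TPM and Pax8 2.36 TPM, and Arl5c was 25.2 TPM in exHindgut replicate 4. In emHindgut, Tex19.1 was 2.07 TPM in replicate 2, while in replicate 3 Rhox6 was 1.18 TPM, Xlr3b 1.86 TPM and Lrrn1, the only low value among these, 1.27 TPM.

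The origin difference of 13 genes differed between hindgut and midgut in the interaction test, given here as hindgut minus midgut with limma's adjusted p. Lower in the hindgut comparison were Hoxb1 (-5.04, adjusted p = 0.000118), Nkd2 (-4.41, adjusted p = 0.0294), Cdh11 (-3.76, adjusted p = 0.00579), Hoxd12 (-3.27, adjusted p = 0.0294), Sycn (-3.27, adjusted p = 0.0316), Trf (-2.19, adjusted p = 0.0379) and Clu (-1.46, adjusted p = 0.0379). Higher were Snrpn (0.99, adjusted p = 0.0379), Ak1 (1.53, adjusted p = 0.0379), Rgn (2.88, adjusted p = 0.00651), Abhd12b (3.48, adjusted p = 0.0193), Stmn2 (3.85, adjusted p = 0.0379) and Fgl1 (4.05, adjusted p = 0.0316). Sycn, a pancreatic secretory granule gene, was 200 to 567 TPM in exMidgut, 34.4 to 113 TPM in emMidgut and at most 2.62 TPM in the hindgut. Stmn2, a neuronal tubulin-binding gene, was 10.3 to 53.5 TPM in emMidgut and at most 3.90 TPM in exMidgut. Fgl1 was 6.25 to 7.15 TPM in exHindgut against 0 to 4.51 TPM in emHindgut, and its hindgut call was lost without any 1 of 7 libraries.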

How the results depend on the processing

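Of 90 named genes called in the hindgut, 49 were called under every alternative that tested them, 41 lost the call under at least 1, 30 under 3 or more, and 0 reversed. The hindgut count of 378 was 292 without the trend, 317 with a pseudocount of 0.1, 343 on FPKM, 374 with median-ratio or quantile scaling, 420 over all gene types, 362 in the fit over 16 libraries, 223 with no filter and 252 to 359 with 1 library left out. With no filter the midgut count was 173, the colon count 8 and the interaction count 8. With a pseudocount of 0.1 the colon count was 10 and the interaction count 0 (1008 genes at an unadjusted p under 0.05), and without the trend the interaction count was 8. Leaving out 1 library gave 216 to 388 calls in the midgut, 3 to 19 in the interaction, 12 to 21 in the colon and 3943 to 4142 at E6.5. Quantile scaling changed the E6.5 split from 2389 higher and 1635 lower to 1952 and 1973. Same-numbered deviations correlated by -0.0082 to 0.054 between exHindgut and emHindgut and by -0.0079 to 0.0604 between hindgut and midgut of 1 origin. In each hindgut group, 3 of 4 libraries correlated best with the library of their own number in the other group. H19 in embryonic and the Y-linked sum in extraembryonic libraries were low in the same replicate numbers in both regions. With correlations this small, whether the numbers pair the samples was not settled. With the replicate block the hindgut count was 382, of which 339 were shared, and the interaction count was 8. A pool of 3 libraries against 4 has fewer samples, which by construction lowers the power of the test. The cause of the other changes was not tested.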

Other observations

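The non-coding imprinted gene H19, tested in the fit over all gene types, was 456, 651, 526 and 540 TPM in exHindgut and 8.00, 7.46, 106 and 137 TPM in emHindgut (difference 4.05, adjusted p = 0.00457). The emHindgut libraries fall at a low level in replicates 1 and 2 and a higher one in replicates 3 and 4. The emMidgut libraries were 5.82, 3.05, 119 and 138 TPM, with the same replicate numbers low and high. Igf2, its neighbour, was 198 and 191 TPM in emHindgut replicates 1 and 2 and 119 and 109 TPM in replicates 3 and 4, so the libraries low for H19 were the ones high for Igf2.

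Several groups showed few or 0 calls in the hindgut. For comparison, 1050 of all 12318 genes tested were higher and 1313 lower at an unadjusted p under 0.05 by limma. Of 53 axon guidance genes 2 were called lower, Plxna2 (difference -1.53) and Nrp2 (difference -1.11), and both calls were lost without any 1 of 6 libraries. Of 25 amino acid transporter genes 2 were called lower, Slc38a4 and Slc7a1 (1.27 to 3.78 TPM in exHindgut against 6.45 TPM or more in emHindgut). By limma 0 of 29 lysosomal genes were called (5 higher and 1 lower at an unadjusted p under 0.05), 0 of 20 immediate early and stress genes (7 higher and 2 lower), 0 of 8 foregut and midgut genes (0 higher and 1 lower), 0 of 5 pluripotency genes (0 in either direction) and 0 of 8 notochord genes (1 higher and 1 lower).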
